A study of Mus musculus with 8 samples.

Results

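The genes described here are 41 genes of DNA replication and origin licensing in the brain cortex of mouse embryos. They were taken from a list of gene symbols, and all 41 were measured, out of 19938 genes with a probe set that the platform annotation ties to 1 symbol. The data are 8 whole-transcript Affymetrix arrays of cortex at embryonic day 16, 4 labelled as wild-type control and 4 labelled as bitransgenic with induced overexpression of VEGF. In the bitransgenic embryos a tetracycline-controlled transactivator driven by the GFAP promoter (GFAP-tTA) acts on a TetO-linked VEGF-A164 transgene. The labels describe the controls as lacking the TetO-linked transgene and do not say whether they carried the transactivator. All 8 arrays share a mixed strain background. VEGF-A is a growth factor for blood vessels, and the question is which cortical genes differ when it is overexpressed. The labels do not say whether an array holds 1 embryo or a pool, or from how many litters they came, so the p-values reflect only the variation among these arrays.

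Before S phase, the origin recognition complex together with CDC6 and CDT1 loads the MCM2-7 helicase onto origins, a step called licensing, which geminin blocks once replication has begun. The kinases CDC7 and CDK2 then bring CDC45 and the GINS complex to the loaded MCM ring, and the assembled CMG helicase unwinds DNA for the polymerases. Many of these genes are transcribed at the G1/S transition under E2F factors. In the embryonic cortex S phase takes place in radial glia and other progenitors of the germinal zones, while neurons have left the cell cycle.

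The deposited values are logarithms, taken as log2 since no source gives the base, and every probe set has its own median of the 8 arrays set to 0. A value is therefore a distance from that median, and as absolute levels are lost, genes cannot be compared by level. For the same reason the labelled tissue could not be checked against its defining markers. Folds assume base 2. The medians of whole arrays were between -0.0091 and 0.0154. Vegfa, read by 1 probe set, did not check the labels, with a difference of 0.05 (SE 0.051, exact two-sided permutation test p = 0.343, smallest p possible 0.0286). By Xist and Y-linked transcripts a female pattern was seen in control 3, VEGF 2 and VEGF 3 and a male pattern in the other 5 arrays. In bulk tissue, fewer cells of a type and less RNA per cell cannot be told apart.

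The upstream sequence of some members is shown first, picked from those with letters of the E2F binding motif. Such letters were found in 13 of the 33 members with a promoter window. The choice of the members themselves did not use the motif. The stretches come from RefSeq on build GRCm38.p6, are written 5′ to 3′ on the strand of the gene, and end at the base before the annotated start. Capitals mark the letters TTTCCCGC, TTTCGCGC, TTTGCCGC or TTTGGCGC, or their reverse complements. Orc1, the largest subunit of the origin recognition complex (chr4:108579204-108579453, + strand), Mcm6 (chr1:128359706-128359955, - strand) and Mcm5 (chr8:75109259-75109508, + strand), helicase subunits, and Gins3, a GINS subunit (chr8:95633309-95633558, + strand), read as follows.
Orc1: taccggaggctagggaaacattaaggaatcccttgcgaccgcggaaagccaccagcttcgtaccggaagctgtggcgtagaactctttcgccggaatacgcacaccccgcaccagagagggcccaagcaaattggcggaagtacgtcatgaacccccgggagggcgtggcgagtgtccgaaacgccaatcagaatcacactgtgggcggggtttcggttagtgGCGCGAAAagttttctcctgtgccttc
Mcm6: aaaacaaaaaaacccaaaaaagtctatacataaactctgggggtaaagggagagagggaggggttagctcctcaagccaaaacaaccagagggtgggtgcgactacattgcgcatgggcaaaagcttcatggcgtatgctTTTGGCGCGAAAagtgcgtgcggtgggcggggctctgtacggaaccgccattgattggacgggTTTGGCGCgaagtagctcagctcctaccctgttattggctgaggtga
Mcm5: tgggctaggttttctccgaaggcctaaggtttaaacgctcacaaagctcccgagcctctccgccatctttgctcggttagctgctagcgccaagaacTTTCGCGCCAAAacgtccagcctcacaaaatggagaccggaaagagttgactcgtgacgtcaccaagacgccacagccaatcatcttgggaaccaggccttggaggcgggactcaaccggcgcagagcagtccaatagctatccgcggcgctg
Gins3: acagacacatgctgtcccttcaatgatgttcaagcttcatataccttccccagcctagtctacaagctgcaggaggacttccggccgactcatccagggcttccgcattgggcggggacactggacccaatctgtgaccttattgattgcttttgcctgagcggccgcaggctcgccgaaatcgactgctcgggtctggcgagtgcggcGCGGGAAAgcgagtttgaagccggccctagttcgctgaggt
In Mcm3, another helicase subunit, a pair of matches lies within 27 bases, just downstream of the annotated start (chr1:20820267-20820293, - strand).
Mcm3: GCGGGAAAacttgggaagtTTTGGCGC

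The RefSeq promoter table held a window of 300 bases, 250 before and 50 from the start on, for 33 of the 41 members, with 39 windows in all. At least 1 of the 4 E2F spellings, on either strand, was in 13 of the 39 windows, or 33.3%, and these belonged to 13 genes: Mcm3, Mcm5, Mcm6, Mcm7, Orc1, Cdc6, Cdt1, Gins3, Pola1, Pold1, Rfc3, Lig1 and Uhrf1. The same letters were in 2.26% of all 32851 windows, in 2.99% of the windows of tested genes, and in 4.0% of windows with a GC content of 55 to 75%, a range that spans the median of the member windows, 61.3%. The spellings can overlap one another. TTTGGCGCGAAA, where 2 of them overlap on opposite strands, is in the Mcm6 stretch, and its reverse complement TTTCGCGCCAAA is in the Mcm5 stretch. Read on both strands these 12 letters were in 4 of all the windows. The motif CCAAT, bound by NF-Y, was in 51.3% of the member windows against 37.4% of all windows. Other genes of the replication pathway, which are not members, had E2F letters in 21 of 82 windows, or 25.6%, and CCAAT in 43.9%. Windows of mitosis genes held E2F letters in 1 of 19 and CCAAT in 17 of 19. These are matches of letters in a fixed window and are given without a test.

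Against control, all 41 replication genes were higher in the VEGF-labelled arrays, and none of the differences passed the test over all genes. The differences were small, with a median of 0.159 on the log2 scale and a range from 0.01 for Gins4 to 0.40 for Orc1, or 1.01-fold to 1.32-fold. Over all 19938 genes the median was -0.01, and 43.3% of genes were higher. A difference above 0.1 was measured in 32 of the 41 members and in 9.96% of all genes. With limma and Benjamini-Hochberg adjustment over all genes, 0 members and 0 genes passed an adjusted p of 0.05 (0% of genes), and the lowest adjusted p among the members was 0.243. At an unadjusted limma p under 0.05 there were 13 members, all higher, against 4.62% of all genes on the higher side, and the unpaired test named in the series text, run on the same values, gave 3, against 3.31% of all genes, and after adjustment 0. The members moved together from array to array, so they are not 41 separate pieces of evidence. The count of 13 depended on single arrays and on how they were weighted, and each count is given here with the share of all genes called higher in the same fit. It was 3 without control 1 (2.4% of all genes), 3 without control 2 (3.47%), 20 without control 3 (5.19%) and 8 without control 4 (2.92%). It was 22 without VEGF 1 (5.9%), 6 without VEGF 2 (3.35%), 4 without VEGF 3 (3.51%) and 15 without VEGF 4 (6.1%). With array weights it was 7 (4.85%).

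**Figure D1:**
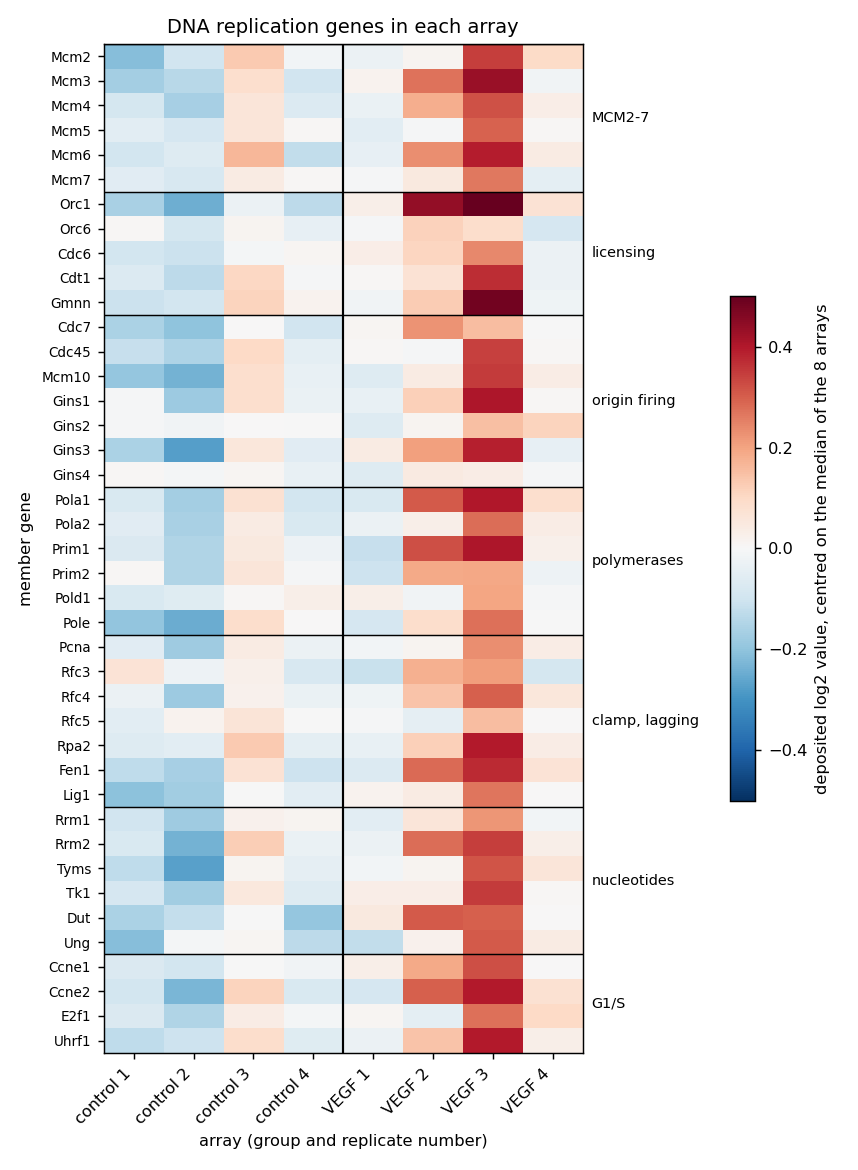
Deposited log2 values of the 41 members, centred per probe set, in each of the 8 arrays (columns), with the members ordered by role (rows). VEGF 3 is the highest array in 37 of the 41 rows, and control 2 is the lowest in 27.

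A single array led the set. VEGF 3 was the highest of the 8 arrays in 37 members and VEGF 2 in the other 4 (Orc6, Cdc7, Gins4 and Dut). The median over the members was 0.315 in VEGF 3 and 0.113 in VEGF 2, against 0.007 in VEGF 4 and -0.028 in VEGF 1. Among the controls it was 0.054 in control 3, -0.036 in control 4, -0.083 in control 1 and -0.151 in control 2. Control 3 was the highest control in 38 members, and it lay above VEGF 1 in 34, above VEGF 4 in 31, above VEGF 2 in 12 and above VEGF 3 in 0. The groups thus overlapped in most members: they were apart in 4, against 2.13% of all genes on the higher side. In 16 more, control 3 was the 1 control that reached into the VEGF-labelled range. Without control 3, 5.12% of all genes had groups apart on the higher side. Without VEGF 3 the median difference was 0.088 with 37 members higher, where 46.4% of all genes were higher.

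The 3 arrays with a female pattern were also those with the highest member medians. Sex pattern is unevenly spread over the groups, at 1 of 4 controls and 2 of 4 VEGF-labelled arrays. Among the male-pattern arrays, 3 control and 2 VEGF-labelled, 37 of 41 members were higher with a median difference of 0.098, while the median of all genes was -0.003 and 48.4% of them were higher. The members that were not higher there were Orc6, Gins4, Prim2 and Rfc3, with -0.007, -0.023, -0.014 and -0.088. In these 5 arrays the groups did not overlap in 21 members, against 9.89% of all genes. Among the female-pattern arrays, 1 control and 2 VEGF-labelled, 40 members were higher with a median of 0.152, the exception being Rfc5 at -0.008, and a single control allows no test. With sex pattern as a covariate in limma the median was 0.108, 40 members were higher and 0 passed. The part of sex in the difference was not tested beyond these values.

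The MCM2-7 helicase, the ring that unwinds DNA at the fork, had differences from 0.08 to 0.26 in its 6 subunits. Mcm3 had the largest. It was at -0.17, -0.14, 0.08 and -0.10 in controls 1 to 4 and at 0.02, 0.27, 0.43 and -0.02 in VEGF 1 to 4. VEGF 2 and VEGF 3 stood above every control, while VEGF 1 and VEGF 4 lay below control 3. The difference was 0.26 (SE 0.10, limma adjusted p = 0.362). Mcm4 and Mcm6 differed by 0.19 and 0.18 and Mcm2 by 0.15, and Mcm7 and Mcm5 by 0.09 and 0.08. In Mcm2 and Mcm5, VEGF 2 was near its own median, at 0.01 and -0.0073, and VEGF 3 alone, at 0.35 and 0.30, stood above every control.

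Among the licensing factors Orc1 had the largest difference of all members. It was at -0.16, -0.25, -0.03 and -0.13 in controls 1 to 4 and at 0.03, 0.44, 0.50 and 0.07 in VEGF 1 to 4, so the groups did not overlap. The gap between the highest control and the lowest VEGF-labelled array was 0.061. The difference was 0.40 (SE 0.11, limma adjusted p = 0.243), or 1.32-fold, and it was between 0.23 and 0.48 over all alternatives. Orc6, a smaller subunit of the same complex, differed by 0.05 with VEGF 4 as low as control 2, at -0.09 each. The loading factors Cdc6 and Cdt1 differed by 0.14 and 0.13. Geminin, Gmnn, which inhibits CDT1, differed by 0.16. It was at 0.48 in VEGF 3 and 0.13 in VEGF 2, above control 3 at 0.11, while VEGF 1 and VEGF 4 were both at -0.02.

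Of the factors of origin firing, the kinase Cdc7 was at -0.16, -0.20, 0.0037 and -0.09 in controls 1 to 4 and at 0.01, 0.22, 0.15 and -0.0037 in VEGF 1 to 4. The groups overlapped only by VEGF 4 falling just below control 3. The difference was 0.21 (SE 0.064, limma adjusted p = 0.266). Gins3 was at -0.16, -0.27, 0.06 and -0.06 in the controls and at 0.04, 0.21, 0.39 and -0.04 in the VEGF-labelled arrays, with a difference of 0.26 (SE 0.10, limma adjusted p = 0.353). The 4 GINS subunits, which form 1 complex, were not alike in size: Gins1 differed by 0.16, Gins2 by 0.06 and Gins4 by 0.01. Gins4 and Gins2 also varied least over the controls, with SDs of 0.02 and 0.01 (n = 4). Cdc45 and Mcm10, which join the helicase at the origin, differed by 0.14 and 0.18.

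Polymerase alpha and primase, which lay down the first stretch of each new strand, had unequal values in their paired subunits. Pola1, the catalytic subunit, was at -0.08, -0.17, 0.075 and -0.09 in controls 1 to 4 and at -0.08, 0.31, 0.40 and 0.0845 in VEGF 1 to 4. VEGF 1 lay within the controls, VEGF 2 and VEGF 3 well above them and VEGF 4 just above control 3. The difference was 0.24 (SE 0.10, limma adjusted p = 0.375), against 0.14 for its partner Pola2. The primase subunits Prim1 and Prim2 differed by 0.21 and 0.09, and the catalytic subunits of the leading and lagging strand polymerases, Pole and Pold1, by 0.16 and 0.08. Whether partner subunits differ from each other was not tested, and the SEs in this group were 0.054 to 0.11.

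Pcna, the sliding clamp, differed by 0.12 (SE 0.065, limma adjusted p = 0.493). Its 2 probe sets differed by at most 0.0077 in any array. They may read the same sequence, since the RefSeq table also lists the pseudogene Pcna-ps2. The clamp loader subunits were spread, with Rfc4 at 0.17 and Rfc3 and Rfc5 at 0.05 and 0.02, and the single-strand binding protein Rpa2 differed by 0.14. The flap endonuclease Fen1 and the ligase Lig1, which finish lagging strand fragments, were higher by more. Fen1 was at -0.13, -0.16, 0.07 and -0.10 in controls 1 to 4 and at -0.07, 0.28, 0.37 and 0.07 in VEGF 1 to 4, a difference of 0.24 (SE 0.096, limma adjusted p = 0.355). Lig1 was at -0.21, -0.17, -0.0012 and -0.05 in the controls and at 0.02, 0.04, 0.27 and 0.0012 in the VEGF-labelled arrays. Its groups were apart by 0.0023, and the difference was 0.19 (SE 0.07, limma adjusted p = 0.333).

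Enzymes of nucleotide supply and uracil removal had a median difference of 0.187 over 6 genes, and all 6 were above 0.1. Dut, the dUTPase that keeps uracil out of DNA, was at -0.16, -0.12, -0.0022 and -0.19 in controls 1 to 4 and at 0.05, 0.31, 0.30 and 0.0022 in VEGF 1 to 4. Its groups were apart by 0.0045, and VEGF 2 and VEGF 3 stood well above the rest. The difference was 0.28 (SE 0.079, limma adjusted p = 0.243), or 1.22-fold. Ung, which excises uracil from DNA, differed by 0.15, with VEGF 1 at -0.12 and control 1 at -0.21. Thymidylate synthase Tyms and thymidine kinase Tk1 differed by 0.20 and 0.17, and the 2 probe sets of Tk1 gave 0.202 and 0.143. The ribonucleotide reductase subunits Rrm2 and Rrm1 differed by 0.21 and 0.11.

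The G1/S regulators, grouped with Uhrf1, had a median of 0.184 over 4 genes. Cyclin E1, Ccne1, was at -0.07, -0.09, -0.0008 and -0.02 in controls 1 to 4 and at 0.03, 0.19, 0.32 and 0.0008 in VEGF 1 to 4. Its groups were apart by 0.0017, and the difference was 0.18 (SE 0.069, limma adjusted p = 0.345). Cyclin E2, Ccne2, was at -0.09, -0.23, 0.11 and -0.08 in the controls and at -0.08, 0.30, 0.40 and 0.08 in the VEGF-labelled arrays, so the groups overlapped, with a difference of 0.24 (SE 0.11, limma adjusted p = 0.403). The transcription factor E2f1 differed by 0.13, and Uhrf1, which brings DNA methyltransferase to newly copied DNA, by 0.19. In all, the groups did not overlap in 4 members, Orc1, Lig1, Dut and Ccne1, against 2.13% of all genes on the higher side. In genes whose groups are apart, the centring places the 2 middle arrays at equal distances on either side of 0, so the narrow gaps in Lig1, Dut and Ccne1 rest on VEGF 4 and control 3. Without control 3 the groups were apart in 20 members, against 5.12% of all genes.

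**Figure D2:**
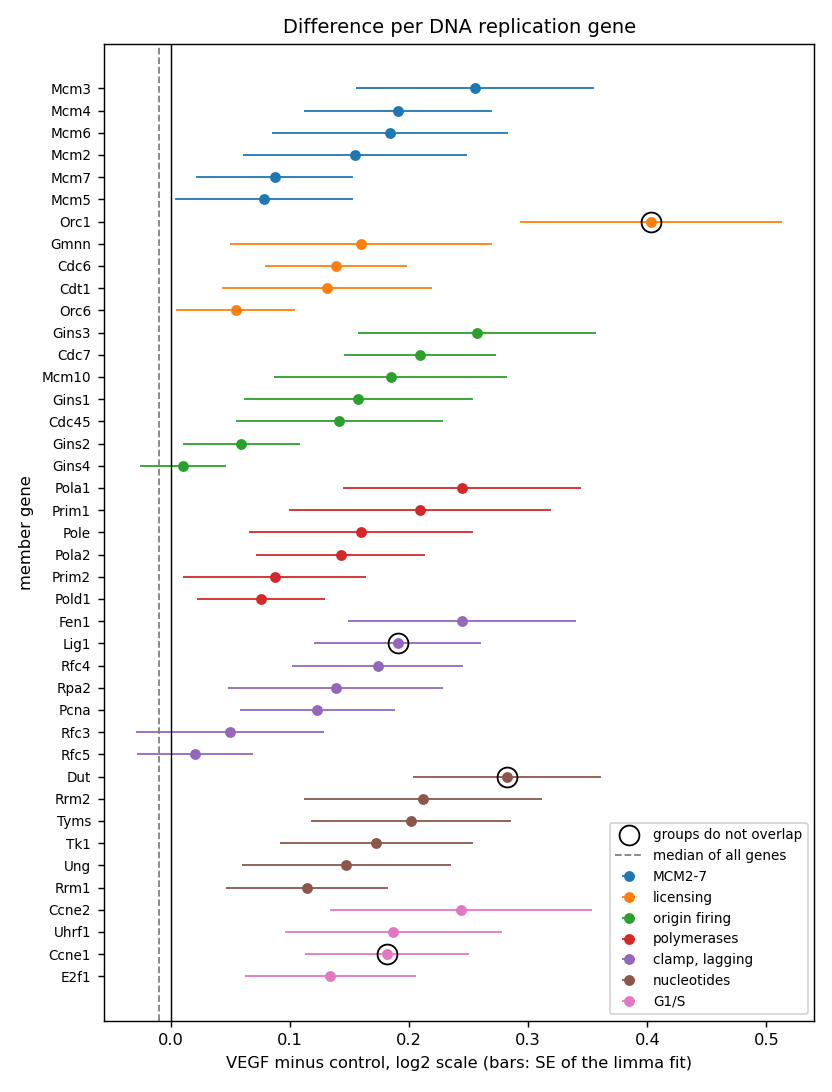
VEGF minus control on the log2 scale for each member (points, with bars of 1 SE from the limma fit), grouped by role. All 41 points lie above 0 and above the median of all genes at -0.01 (dashed line), and rings mark the 4 members whose groups do not overlap.

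**Figure D3:**
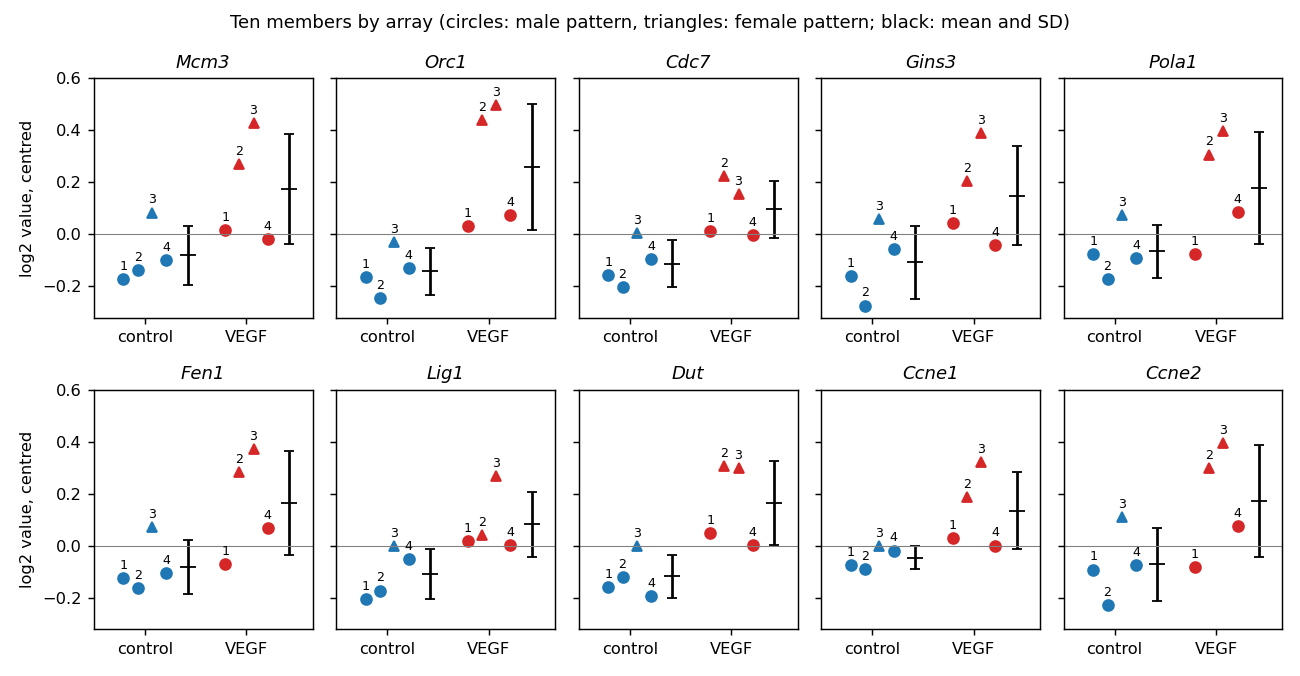
Log2 values of 10 members in each array (numbers are replicate numbers, triangles arrays with a female pattern, circles arrays with a male pattern), with the mean and SD of each group of 4 in black. VEGF 3 is the highest array in each panel except Cdc7 and Dut, where VEGF 2 is, and control 3 is the highest control in every panel.

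The members differed in how far VEGF 2 stood from VEGF 3. In 12 members VEGF 3 was less than 0.1 above VEGF 2 or lay below it: Cdc7, Orc6, Dut, Gins4, Prim2, Rfc3, Orc1, Rrm2, Prim1, Fen1, Pola1 and Ccne2. In 8 members VEGF 3 was more than 0.3 above VEGF 2: Tyms, Mcm5, Mcm10, Tk1, E2f1, Mcm2, Cdc45 and Gmnn. Tk1 is counted by its average, and its 2 probe sets were at -0.018 and 0.0876 in VEGF 2 and at 0.34 and 0.36 in VEGF 3. VEGF 2 was above 0.1 in 22 members, whereas VEGF 3 was above 0.1 in 39. The thresholds of 0.1 and 0.3 were chosen after the values were seen.

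Other genes of the pathway, 82 that are not among the 41, were also mostly higher. Of the 80 measured, 70 were higher and 10 lower, with a median of 0.113 and a range from -0.17 to 0.49, and 0 passed over all genes. At an unadjusted limma p under 0.05 there were 19 higher and 1 lower, against 4.62% and 7.84% of all genes. The lower gene was Pold4, the smallest subunit of polymerase delta, at 0.11, 0.09, 0.04 and 0.09 in controls 1 to 4 and at -0.06, -0.10, -0.15 and -0.04 in VEGF 1 to 4. Its groups did not overlap, as in 4.71% of all genes on the lower side, and its difference was -0.17 (SE 0.037, limma adjusted p = 0.243), opposite in sign to the 41 members. On the higher side were the activator E2f3 with 0.32, the dNTP hydrolase Samhd1 with 0.29, Pole2 with 0.32, the phosphatase Cdc25a with 0.20 and the kinase Cdk2 with 0.20. The largest differences in this list, named after their values were seen, were 0.49 for Hells, a chromatin remodeller, and 0.39 for the checkpoint kinase Chek1, with SEs of 0.16 and 0.13 and limma adjusted p of 0.293 and 0.306. The topoisomerase Top2a, cyclin A2 (Ccna2) and the maintenance methyltransferase Dnmt1 differed by 0.09, 0.12 and 0.07. Rb1, which restrains E2F, differed by -0.03, and the cell-cycle inhibitor Cdkn1c by 0.04.

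Mitosis genes were higher in the same arrays as the replication genes, and no gene of the lists below passed the limma test over all genes. The mean of the 41 members was -0.055 ± 0.082 (SD, n = 4) over the controls and 0.105 ± 0.147 (SD, n = 4) over the VEGF-labelled arrays. All 19 measured mitosis genes were higher, with a median of 0.206. Their array means ran from -0.22 in control 2 to 0.064 in control 3, and from -0.058 in VEGF 1 to 0.30 in VEGF 3, so the highest and lowest arrays of each group were those of the replication genes. Ccnb2, a mitotic cyclin and the mitosis gene with the smallest limma p, differed by 0.21 with groups that did not overlap. Groups were apart in 2 of the 19 mitosis genes, against 2.13% of all genes on the higher side. Of 16 radial glia markers 11 were higher, with array means from -0.098 to 0.007 in the control group, against -0.012 to 0.156 in the VEGF-labelled group, again highest in VEGF 3. Of 10 intermediate progenitor markers 4 were higher, with array means from -0.040 to 0.111 over the controls and from -0.13 to 0.154 over the VEGF-labelled arrays.

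Genes of maturing neurons ran the other way. Of 12 synapse and maturation genes 10 were lower, and the list mean was lowest in VEGF 3 at -0.246, against -0.028 to 0.050 in the other VEGF-labelled arrays and -0.002 to 0.107 in control. All 10 measured genes of ganglionic eminence progenitors and interneurons were lower, with array means from 0.118 to 0.297 in the control group, against -0.754 to -0.143 in the VEGF-labelled group, lowest again in VEGF 3. All 8 thalamus markers were higher. Their array means ran from -0.367 to 0.316 over the controls and from -0.249 to 0.84 over the VEGF-labelled arrays, highest in VEGF 1 and VEGF 2. When the arrays with the highest thalamus means were left out (control 2, VEGF 1 and VEGF 2), all 41 members were higher, with a median of 0.195. That left 3 controls and 2 VEGF-labelled arrays, with member means of 0.304 in VEGF 3 and 0.017 in VEGF 4. Control 2 and VEGF 1 had the lowest member means of their groups, so leaving them out also changes the difference. Projection neuron genes were lower in 12 of 13, with array means from 0.009 to 0.211 in the control group, against -0.412 to 0.055 in the VEGF-labelled group. Of 10 endothelial markers 4 were higher, with array means from -0.192 to 0.094 over the controls and from -0.257 to 0.053 over the VEGF-labelled arrays. The microglia list had 9 of 12 higher, from -0.166 to 0.046 in the control group, against -0.018 to 0.166 in the VEGF-labelled group. Erythroid genes were higher in 10 of 11, from -0.126 to 0.013 over the controls and from -0.014 to 0.596 over the VEGF-labelled arrays, and oligodendrocyte precursor genes lower in 6 of 6, from -0.09 to 0.102 in the control group, against -0.33 to 0.068 in the VEGF-labelled group. The part of these cell types in the replication values was not tested.

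**Figure D4:**
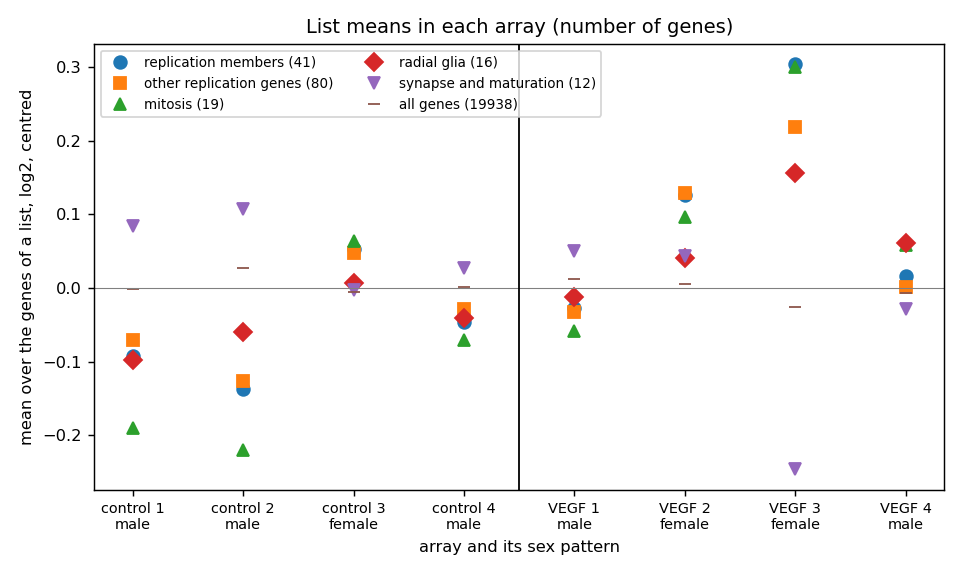
Mean centred log2 value over the genes of each list in each array, with the number of genes in the legend and the sex pattern under each array. Replication and mitosis genes are highest in VEGF 3, at 0.304 and 0.30, where synapse and maturation genes are lowest, at -0.246, and the mean of all genes stays between -0.025 and 0.028.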

How the data were processed

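RNA was extracted with a Qiagen RNeasy kit and labelled with Ambion and Affymetrix kits for whole-transcript arrays, per the labels' protocols. The table the authors deposited holds logarithms, taken as log2 though the base is not given, of 28853 probe sets on 8 arrays. Values were missing in 0 cases, and every probe set median is within 5e-07 of 0. Affymetrix Expression Console and mm8 are named in the submitters' processing notes. How background was corrected and probes summarised is, in the sources used here, not given. Probe sets with 1 symbol in the platform annotation (21789, with 1621 of several symbols and 5443 unnamed left out) were updated through Entrez identifiers to RefSeq (21698 matched) and averaged per gene. Groups came from the titles. The comparison used limma 3.58.1 in R 4.3.3, without covariates, with Benjamini-Hochberg adjustment over 19938 genes. It was tested on simulated data with noise independent between genes. That run set a bar for recovery only at a difference larger than that of any member, so it does not vouch for differences of the members' size. Centred values allow no filter on dim probe sets, and signal over background is unknown. The array number limits the precision.

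The members and lists were chosen with earlier results of these data known. Members given in every array are those with the smallest p or largest difference in each of 7 roles and those whose groups do not overlap. Of the other pathway genes, the 6 with the smallest p and a few set in advance were named. Of these, Cdkn1a was not analysed here. A female pattern meant Xist above 2. Alternatives were the replicate block, centring on array medians, quantiles, a robust trended prior, weights per array, the methods' t-test, sex pattern as a covariate, single probe sets and leaving out arrays. Protein sequence was not used here.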

Additional observations from a re-analysis of the deposited data

Results flagged for a closer look

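In 4 members 1 array stood far from the other arrays of its group, out of 86 groups of 4 examined. Among separate groups chance flags about 1 in 20, or 4.3. The members moved together from array to array, so their groups are not separate and this number cannot say whether the flags are chance. Cdc45 was at 0.34 in VEGF 3, with the other VEGF-labelled arrays between -0.0074 and 0.0076. Tk1 was at 0.35 in VEGF 3 against 0.0059 to 0.035 in the rest of its group, as the average of 2 probe sets. Singly they were more spread in that rest, from -0.018 to 0.0574 and from -0.0062 to 0.0876, with 0.34 and 0.36 in VEGF 3. The flag was set on the average. Lig1 was at 0.27 in VEGF 3 against 0.0012 to 0.042. Rpa2 was at 0.13 in control 3, and the other controls lay between -0.07 and -0.05.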

How the results depend on the processing

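Under the 18 alternatives the median difference of the members stayed above 0, and each of the 10 members given in every array stayed higher and short of an adjusted limma p of 0.05, in 180 of 180 values. Leaving out 1 array at a time, the median ran from 0.088 to 0.21, members higher from 37 to 41, members whose groups did not overlap from 4 to 20 (2.61% to 5.12% of all genes), members at an unadjusted p under 0.05 from 3 to 22 (2.4% to 6.1% of all genes), and genes past an adjusted p of 0.05 from 0 to 10, all 10 of them without VEGF 4. The count at an unadjusted p was 27 with the replicate block (5.39% of all genes), 7 with array weights (4.85%), 3 with the methods' t-test (3.31%) and 6 without the female-pattern arrays (2.76%). Without the female-pattern arrays the groups were apart in 21 members (9.89% of all genes), and without the arrays with high thalamus values in 10 (13.3%). Groups of fewer arrays are easier to part. Genes past an adjusted p of 0.05 were 1 with quantile normalization and 1 without the arrays with high thalamus values, and neither was a member. Why the counts moved was not tested. Same-numbered arrays did not deviate together in every pair (correlations 0.052, -0.13, 0.454 and 0.301), and 2 of the 4 pairs correlated best with their own number. These few correlations are mixed and cannot tell whether the numbers pair the arrays. The Vegfa difference ran from 0.02 to 0.08. No alternative scaling moved the median of all genes by 0.1.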
